A study of Mus musculus with 20 samples.

Results

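Collagen genes were taken as every mouse gene whose symbol is Col, a number, a and a number. The rule found 44 genes among the 39179 in the count table, and they belong to 27 collagen types. Those with a mean of at least 1 CPM over all libraries (reads scaled to the size of each library, written as CPM), 29 genes, are described in detail. Gene expression had been measured by RNA sequencing of whole epididymal fat from male C57BL6/J mice. The 5 groups were mice on normal chow, which is day 0, and mice that had been fed high-fat food for 2, 4, 6 or 14 days. Each group held 4 libraries that the labels call biological replicates. Whether each came from a separate animal is not given, so p-values measure the spread between these libraries.

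Collagens are the main structural proteins of the extracellular matrix, and each molecule is a helix of intertwined alpha chains made from the same or from different genes. Fibrillar collagens (types I, III and V in most soft tissues) build the load-bearing fibres. Type IV forms the network of basement membranes, which wrap every adipocyte and line blood vessels, and types XV and XVIII sit at the edge of these membranes. Type VI forms beaded filaments just outside the basement membrane and is abundant in fat. In adipose tissue, stromal fibroblasts and progenitors make most fibrillar collagen, while adipocytes, endothelial cells and mural cells also make basement membrane chains.

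The library totals ran from 1916829 to 38832429 counts, a 20.3-fold span, and the lowest belonged to day 2 replicate 1. The adipocyte markers Adipoq, Plin1, Cidec, Lep, Lipe, Fabp4 and Slc2a4 were detected in all 20 libraries. Several libraries stood apart from their group. Chow replicate 4 carried 271 CPM summed over 7 markers of epididymis and ductal epithelium, against 2.10 to 21.4 CPM in the other 19 libraries. The summed CPM of 7 genes of dividing cells was 482, 391 and 399.9 in day 4 replicates 2, 3 and 4 but 47.1 in day 4 replicate 1. Day 6 replicate 4 reached 281 CPM, and the remaining day 6 libraries had 34.5 to 76.2 CPM. Where leaving out chow replicate 4 with day 2 replicate 1, or day 4 replicate 1 with day 6 replicate 4, turned a call against chow, it is given beside the result. These are bulk samples, in which fewer cells of a type and less RNA per cell cannot be told apart.

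Of the 44 collagens, 14 had a mean over 100 CPM and held 97.8% of the summed collagen CPM. The highest levels were those of Col4a1 (2298 CPM), Col3a1 (1918 CPM), Col4a2 (1518 CPM), Col5a3 (1279 CPM) and Col15a1 (998 CPM). Basement membrane collagens held 42.6% of the sum in 8 genes and fibrillar collagens 40.4% in 11 genes, of which 7 are described. Type VI held 15.6% in 6 genes, of which 5 are described, and the other 19 genes, of which 9 are described, held 1.34%. Per kilobase of transcript, Col4a1 and Col3a1 were level at 347 and 345 CPM per kb. Col4a2 followed at 235, Col5a3 at 209, Col15a1 at 193, Col6a2 at 184 and Col6a1 at 165 CPM per kb. The chains of type I, which dominates tendon and skin, stood lower, with 115 CPM per kb for Col1a2 and 64.0 CPM per kb for Col1a1.

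The 15 genes below 1 CPM had means of 0.0124 to 0.728 CPM and 7 to 251 reads over all libraries. Col7a1 at 1.20 CPM was the lowest gene included and Col11a2 at 0.728 CPM the highest left out. Col11a2, Col17a1, Col13a1 and Col6a4 still passed the filter on low counts and were tested. The other 11, which did not, were Col2a1, Col9a1, Col9a2, Col9a3, Col10a1, Col11a1, Col19a1, Col22a1, Col24a1, Col25a1 and Col26a1. Several of these, such as Col2a1, Col9a1 and Col10a1, are known from cartilage.

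The summed level of all collagens was 9016, 7343, 7941 and 7451 CPM for chow, 10459.6, 7849, 9712 and 10736 CPM for day 2, 10738, 21224, 20004 and 17260.0 CPM for day 4, 10441, 13827, 12329.5 and 18734 CPM for day 6 and 11955, 11448, 11944 and 10905 CPM for day 14, in replicate order. All day 4, day 6 and day 14 libraries lay above all chow libraries, while day 2 overlapped chow. The group means (± SD, n = 4 each) were 7938 ± 764 CPM for chow, 9689 ± 1301 CPM for day 2, 17306 ± 4682 CPM for day 4, 13833 ± 3549 CPM for day 6 and 11563 ± 498 CPM for day 14. The spread was widest on day 4, where replicate 1 stayed near the day 2 level and the other 3 libraries were the highest apart from day 6 replicate 4. Collagen genes took 1.04% to 2.14% of all counts on day 4, against 0.763% to 0.930% on chow.

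**Figure D1:**
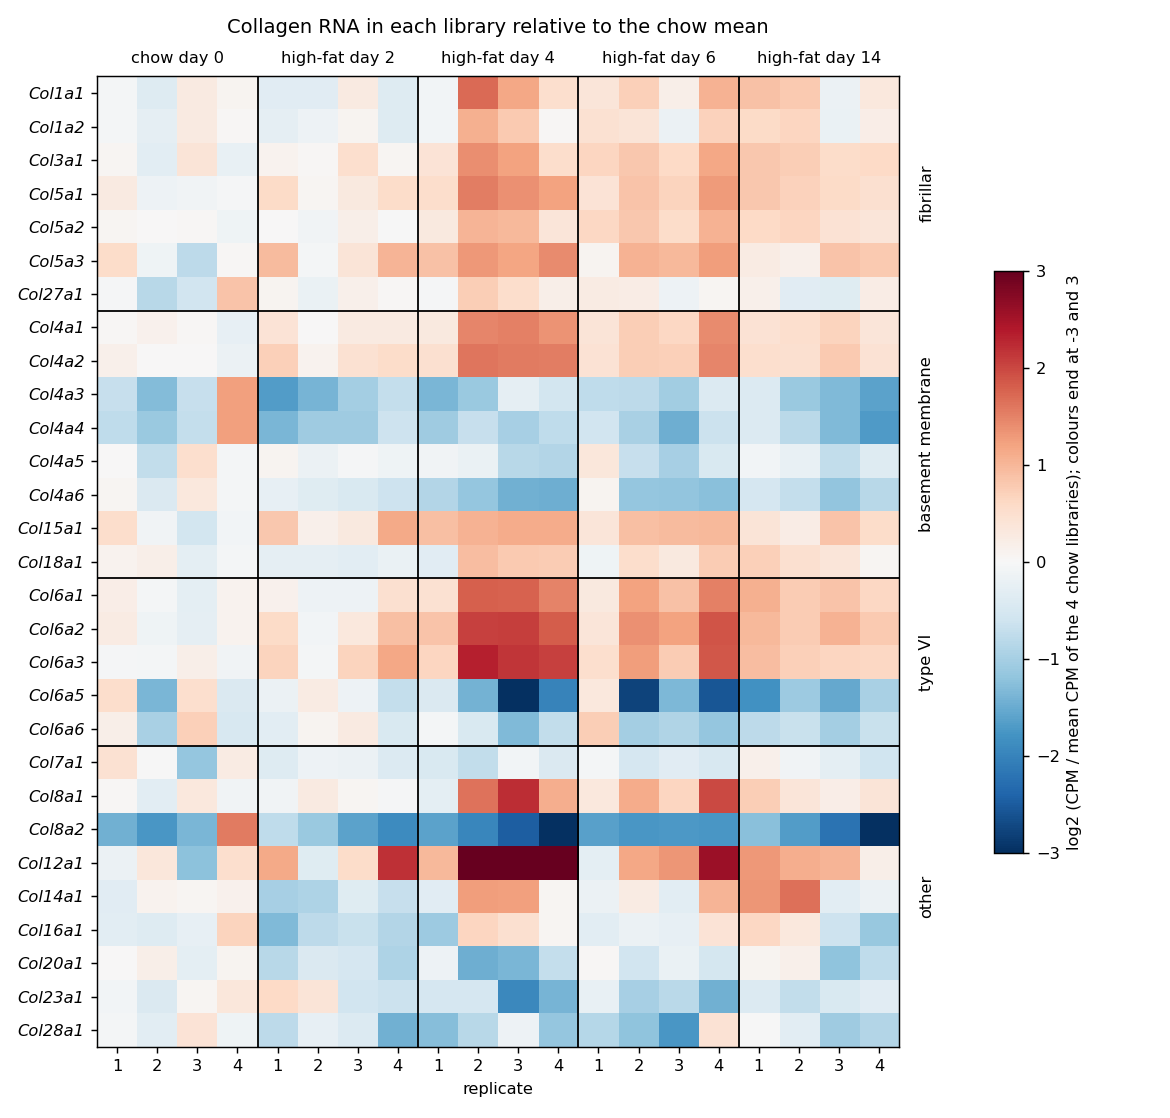
Each cell is the log2 ratio of a gene's CPM in 1 library to its mean over the 4 chow libraries, for 29 collagens in rows by class and 20 libraries in columns by group and replicate, with colours ending at -3 and 3. Day 4 replicates 2, 3 and 4 and day 6 replicate 4 are red across types III, V, XV and VI (Col6a1 to Col6a3) and Col1a1, Col4a1 and Col4a2. Col1a2 lies near its chow mean in day 4 replicate 4. Chow replicate 4 stands out in Col4a3, Col4a4, Col8a2 and Col16a1.

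Each high-fat day was compared with chow by edgeR's quasi-likelihood test, with p-values Benjamini-Hochberg adjusted over 15254 genes and a call at an adjusted p under 0.05. On day 4, 17 of the 29 collagens were called, 14 higher and 3 lower, and 35.3% of all tested genes were called (2741 genes higher and 2640 lower). The median log2 change of the 29 was 0.61, against -0.02 over all genes tested. By class, 5 of 7 fibrillar collagens, 4 of 8 basement membrane collagens and 3 of 5 type VI collagens rose, as did 2 of the 9 others. The fallers were 1 basement membrane gene, Col4a6, and Col23a1 and Col8a2 among the others. The day 4 and chow libraries did not overlap in 13 of the 29, against 30.3% of all genes. Every day 4 library lay above every chow library in 11 of them (2325 of all genes) and below in 2 (2291 of all genes). Without chow replicate 4 and day 2 replicate 1 there were 15 calls, and without day 4 replicate 1 and day 6 replicate 4 there were 20.

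**Figure D2:**
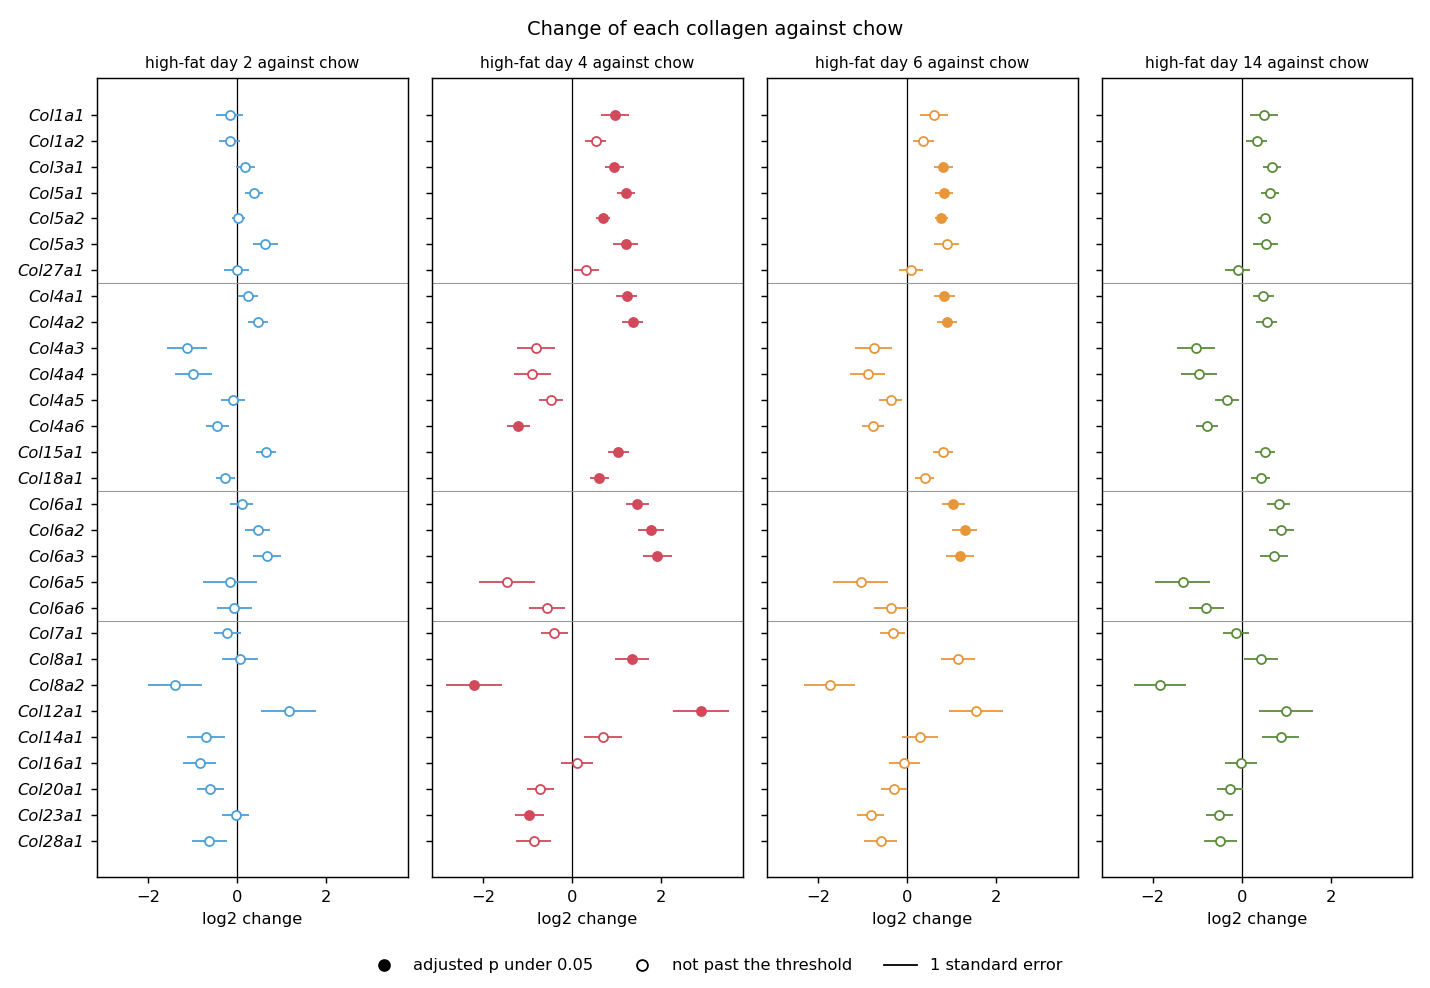
Log2 change of each of the 29 collagens against chow on days 2, 4, 6 and 14, with bars of 1 standard error on each side and filled points for an adjusted p under 0.05. The panels from day 2 to day 14 hold 0, 17, 8 and 0 filled points, and most members of the fibrillar class lie right of 0 from day 4 on.

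Among fibrillar collagens, Col3a1 encodes the single chain of type III, which is typical of vessels and loose connective tissue. Its levels, in replicate order, were 1345, 1030.1, 1681 and 1103 CPM with chow, 1382, 1320.4, 1817 and 1349 CPM at day 2, 1708, 3394, 2997 and 1857 CPM at day 4, 2002, 2276, 1958 and 2875 CPM at day 6 and 2272, 2163, 1899.5 and 1939.8 CPM at day 14. All day 4 libraries exceeded all chow libraries, but replicates 1 and 4 of day 4 only just did. The log2 change on day 4 was 0.95 ± 0.21 (SE; edgeR adjusted p = 0.00331).

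Type I is made of Col1a1 and Col1a2 chains, and with all libraries Col1a1 alone was called. Col1a1 had 264, 901, 624 and 399 CPM on day 4 and 267, 215, 338 and 297 CPM on chow. Replicate 1 of day 4 lay within the chow range and the other 3 above it. Its log2 change was 0.97 ± 0.31 (edgeR adjusted p = 0.0222), and the call was lost without chow replicate 2 or without day 4 replicate 2 or 3, with an adjusted p up to 0.116. Col1a2 had 491, 1094, 898 and 538 CPM on day 4 and 496, 432, 623 and 532 CPM on chow, and it did not pass the test (log2 change 0.53 ± 0.24, edgeR adjusted p = 0.0909). Without day 4 replicate 1 and day 6 replicate 4 it was called as well (log2 change 0.69, edgeR adjusted p = 0.0268). The difference between the 2 changes was not tested.

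Type V collagen starts fibrils and limits their width, and its 3 chains were all higher on day 4. Col5a3, the least widespread of these chains elsewhere, was the most abundant here, with 1437, 1914, 1766 and 2096 CPM on day 4 and 1152, 721, 452 and 806 CPM on chow. The lowest day 4 library exceeded the highest chow library, and the chow libraries were themselves spread widely. Its log2 change was 1.20 ± 0.29 (edgeR adjusted p = 0.00495). Col5a1 averaged 586 ± 159 CPM on day 4 and 253 ± 34.8 CPM on chow, and Col5a2 averaged 332 ± 87.7 CPM on day 4 and 204 ± 11.3 CPM on chow (SD, n = 4 each). Neither overlapped chow. Col5a2 rose by a log2 of 0.70 ± 0.15 (edgeR adjusted p = 0.00265). Col27a1, a fibrillar chain best known from cartilage, averaged 7.25 ± 1.70 CPM on day 4 and 5.58 ± 3.14 CPM on chow and was not called (log2 change 0.32, edgeR adjusted p = 0.389). Without chow replicate 4 and day 2 replicate 1 it was called higher, with a log2 change of 0.77 (edgeR adjusted p = 0.0216).

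The basement membrane class split by chain. Col4a1 and Col4a2, which form the common type IV network of nearly all basement membranes, had means of 2298 and 1518 CPM, whereas Col4a3 to Col4a6 had means of 5.37 to 36.8 CPM. Col4a1 had 1533, 1633, 1528 and 1250.5 CPM with chow, 1967, 1504, 1806 and 1783 CPM at day 2, 1816, 4091, 4239 and 3771 CPM at day 4, 1956, 2471, 2278 and 3987 CPM at day 6 and 1999.5, 2092, 2353 and 1903 CPM at day 14. Day 4 lay wholly above chow, and day 4 replicate 1 lay within the day 2 range. The log2 change on day 4 was 1.23 ± 0.23 (edgeR adjusted p = 0.00144). Col4a2 averaged 2354 ± 723 CPM on day 4 and 915 ± 88.9 CPM on chow (SD, n = 4 each), also without overlap.

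Col4a1 and Col4a2 lie head to head on chromosome 8, on opposite strands, with starts 21 bases apart in the GENCODE M21 annotation of GRCm38. Col4a3 and Col4a4 are arranged alike on chromosome 1 with starts 72 bases apart, and Col4a5 and Col4a6 on chromosome X with starts 1309 bases apart. RefSeq promoter windows of GRCm38.p6, which hold 250 bases before and 50 after each start, were matched for 24 of the 29 genes. The Col4a1 window is chr8:11312777-11313076 on the minus strand and the Col4a2 window is chr8:11312555-11312854 on the plus strand. They are printed because the levels of this pair stayed in a narrow ratio, given after the sequences. Capitals mark the 78 bases that both windows hold, chr8:11312777-11312854, read on opposite strands.
Col4a1: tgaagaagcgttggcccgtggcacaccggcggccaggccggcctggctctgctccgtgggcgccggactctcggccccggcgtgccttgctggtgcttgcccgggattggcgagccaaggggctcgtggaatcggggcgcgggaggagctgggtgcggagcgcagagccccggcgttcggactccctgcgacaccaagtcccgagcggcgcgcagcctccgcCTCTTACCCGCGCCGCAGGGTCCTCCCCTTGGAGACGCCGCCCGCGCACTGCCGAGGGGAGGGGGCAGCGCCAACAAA
Col4a2: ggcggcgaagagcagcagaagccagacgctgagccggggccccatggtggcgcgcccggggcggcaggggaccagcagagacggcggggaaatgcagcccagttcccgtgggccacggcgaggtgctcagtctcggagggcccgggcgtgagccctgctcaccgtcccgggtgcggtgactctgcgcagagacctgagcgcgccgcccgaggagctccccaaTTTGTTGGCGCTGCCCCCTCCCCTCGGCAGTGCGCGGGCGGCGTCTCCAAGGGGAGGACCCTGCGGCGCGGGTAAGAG

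The Col4a5 window is chrX:141475169-141475468 on the plus strand and the Col4a6 window is chrX:141474027-141474326 on the minus strand. They are shown because Col4a6 was the type IV chain that fell while Col4a5 was not called. Here capitals mark matches to GGGCGG (the GC box), CCAAT or TATAAA on either strand.
Col4a5: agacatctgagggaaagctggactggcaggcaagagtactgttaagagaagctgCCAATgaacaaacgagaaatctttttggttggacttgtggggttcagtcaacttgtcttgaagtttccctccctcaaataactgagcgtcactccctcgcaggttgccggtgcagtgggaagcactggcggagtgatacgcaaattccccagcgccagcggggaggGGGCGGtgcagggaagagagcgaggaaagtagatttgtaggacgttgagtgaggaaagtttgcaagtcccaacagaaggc
Col4a6: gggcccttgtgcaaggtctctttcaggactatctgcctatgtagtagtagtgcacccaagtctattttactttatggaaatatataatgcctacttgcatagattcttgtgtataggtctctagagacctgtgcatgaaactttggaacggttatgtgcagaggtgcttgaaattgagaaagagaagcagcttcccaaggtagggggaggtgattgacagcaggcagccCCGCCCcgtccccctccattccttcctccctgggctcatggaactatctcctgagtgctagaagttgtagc

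A GC box was present in 17 of the 24 collagen windows (70.8%), against 35.9% of the windows of 27025 genes. The collagen windows had a median GC content of 61.3%, against 52.7% over all genes. CCAAT was present in 8 of 24 (33.3%, against 37.9% of all genes), and TATAAA in 1 of 24, Col3a1 (4.17%, against 14.2% of all genes). The bases shared by Col4a1 and Col4a2 hold 1 GC box, no CCAAT and no TATAAA. These letters are a description of the windows only. The authors' annotation and strand setting are not given in the sources used here, so reads where Col4a1 and Col4a2 overlap at their 5′ ends cannot be assigned with certainty.

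Of 6 ratios of reads between chains of 1 type, that of Col4a1 to Col4a2 varied least within groups. The ratio of Col4a1 to Col4a2 reads stayed between 1.31 and 1.78 in all 20 libraries. Its log2 values had an SD within groups of 0.079, against 0.347 for Col4a1 alone and 0.346 for Col4a2 alone. For Col6a1 to Col6a2, whose genes lie in tandem on chromosome 10, the ratio ran from 0.791 to 1.15 with an SD of 0.124, against 0.410 and 0.443 for each chain. Both pairs share library and depth, and the chains of a pair cannot be treated as independent. The ratio of Col1a1 to Col1a2 averaged 0.699 ± 0.120 on day 4 and 0.534 ± 0.027 on chow (SD, n = 4 each), and day 4 replicate 1 at 0.537 lay inside the chow range of 0.497 to 0.559. For Col5a1 to Col5a2 the SD within groups was 0.199, against 0.298 and 0.220 for each chain. For Col8a1 to Col8a2 it was 1.10, above the 0.605 and 0.852 of each chain. That ratio ran from 0.476 in chow replicate 4 to 38.3 in day 4 replicate 3. The 38.3 came from 230 reads of Col8a1 and 6 of Col8a2, and day 4 replicates 1, 2 and 4 had 38, 9 and 13 Col8a2 reads. In the smallest library, day 2 replicate 1, Col4a1 had 3645 and Col4a2 2772 reads. With so few Col8a2 reads, the spreads of these 2 ratios cannot be compared.

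**Figure D3:**
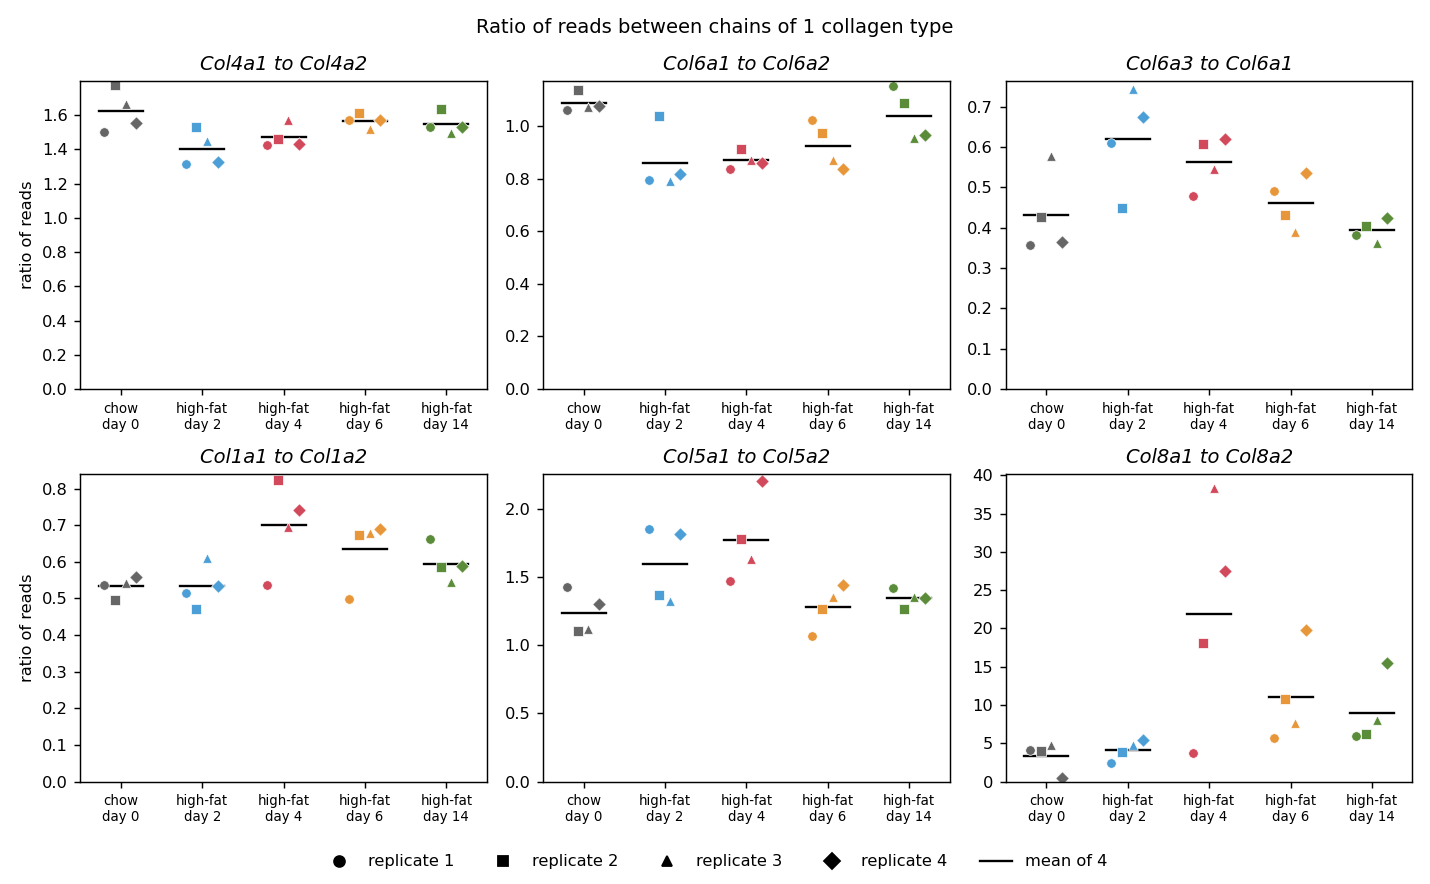
Ratio of reads between 2 chains of 1 collagen type in each of the 20 libraries, by group, with a line at the mean of 4 and every vertical axis starting at 0. Col4a1 to Col4a2 stays within 1.31 to 1.78 throughout, while Col8a1 to Col8a2 spans 0.476 to 38.3, the highest resting on 6 reads of Col8a2.

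Col4a6 encodes a chain known from smooth muscle and some epithelial basement membranes. Its level was 9.79, 7.99, 6.66 and 6.54 CPM on day 4 and 18.8, 13.4, 22.4 and 17.2 CPM on chow, and every day 4 library lay below every chow library. The log2 change was -1.21 ± 0.26 (edgeR adjusted p = 0.00292), and it passed the threshold in all 20 fits without 1 library. All 7 mesothelial markers were called lower on day 4, against 2640 of all 15254 genes tested. The 7 markers summed to 72.3 to 207 CPM on day 4 and 350 to 447 CPM on chow. None of the 7 was at 0 in any library. Of 7 markers of epididymis and ductal epithelium, all 5 tested were also called lower. That list summed to 2.10 to 10.7 CPM on day 4, with up to 6 genes at 0, and 13.3 to 271 CPM on chow. Of 7 smooth muscle and pericyte markers, 1 was called higher and 0 lower. The part of these lists in the fall of Col4a6 was not tested. Col4a5 averaged 31.3 ± 8.63 CPM on day 4 and 43.2 ± 14.6 CPM on chow (SD, n = 4 each) and was not called.

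Col4a3 and Col4a4, known from the kidney filter, were low in all but 1 library. Chow replicate 4 had 20.2 CPM of Col4a3, whereas chow replicates 1 to 3 had 3.49 to 5.35 CPM, and 26.05 CPM of Col4a4, against 5.11 to 6.81 CPM. Neither was called on day 4. The log2 changes on day 4 were -0.81 for Col4a3 and -0.90 for Col4a4, and without chow replicate 4 and day 2 replicate 1 they were 0.05 and -0.04. The same library carried the ductal epithelial markers given above, and their part in these levels was not tested.

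The 2 multiplexins, Col15a1 and Col18a1, whose proteins carry sugar chains and release endostatin-like fragments, rose on day 4. Col15a1 had 1181, 1314, 1372 and 1389 CPM on day 4 and 924, 589.8, 432 and 602 CPM on chow, with no overlap and a narrow range on day 4. Its log2 change was 1.04 ± 0.23 (edgeR adjusted p = 0.00298). Col18a1 had 175, 421, 379.7 and 375 CPM on day 4 and 239, 251, 179 and 213 CPM on chow, where day 4 replicate 1 was the lowest of the 8 libraries. Its change of 0.61 ± 0.22 (edgeR adjusted p = 0.0361) lost its call in 5 of the 20 fits without 1 library, namely chow replicate 3 or 4 or day 4 replicate 2, 3 or 4, with an adjusted p up to 0.115. It was also lost without chow replicate 4 and day 2 replicate 1 (edgeR adjusted p = 0.0886) and with library size as the only scaling (edgeR adjusted p = 0.0916). Col18a1 overlaps Slc19a1 on the opposite strand, so its reads could be shared.

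Type VI divided between its classical and its later described chains. Col6a1, Col6a2 and Col6a3 assemble into the common heterotrimer, and Col6a5 and Col6a6 can take the place of Col6a3. Col6a1 had 449, 371, 319.7 and 418 CPM with chow, 426, 351, 351 and 546 CPM at day 2, 539, 1358, 1326 and 1093 CPM at day 4, 476, 905, 717 and 1112 CPM at day 6 and 816, 663, 704 and 597 CPM at day 14. The day 4, day 6 and day 14 libraries lay above all chow libraries, and day 2 replicates 1, 2 and 3 lay inside the chow range. The log2 change on day 4 was 1.47 ± 0.26 (edgeR adjusted p = 0.00125).

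Col6a2 had 644, 1486, 1520.5 and 1270.0 CPM on day 4 and 422, 327, 297 and 389 CPM on chow. Col6a3, the chain that carries endotrophin, a fragment released from its end, had 258, 826, 724 and 679 CPM on day 4 and 161, 158, 185 and 152 CPM on chow. Both were higher in all 4 day 4 libraries than in any chow library. Folds of the fitted values were 2.77 for Col6a1, 3.43 for Col6a2 and 3.79 for Col6a3.

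Col6a5, by contrast, had 125, 62.6, 11.8 and 42.1 CPM on day 4 and 244, 65.0, 240.1 and 125 CPM on chow. The groups overlapped, and day 4 replicate 3 had the lowest value of all 20 libraries. The log2 change of -1.46 ± 0.63 did not pass the test (edgeR adjusted p = 0.0787), but did without day 4 replicate 1 and day 6 replicate 4 (log2 change -2.11, edgeR adjusted p = 0.020). Col6a6 averaged 30.1 ± 10.5 CPM on day 4 and 44.6 ± 22.2 CPM on chow (SD, n = 4 each) and was not called. Col6a4, a chain of the same cluster on chromosome 9 with 231 reads in all, was called lower on day 4 (log2 change -1.16 ± 0.42, edgeR adjusted p = 0.0387). It averaged 0.446 CPM on day 4, from 18 reads, and 1.01 CPM on chow, from 95 reads. As a gene below 1 CPM, Col6a4 was not followed under the alternative fits.

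**Figure D4:**
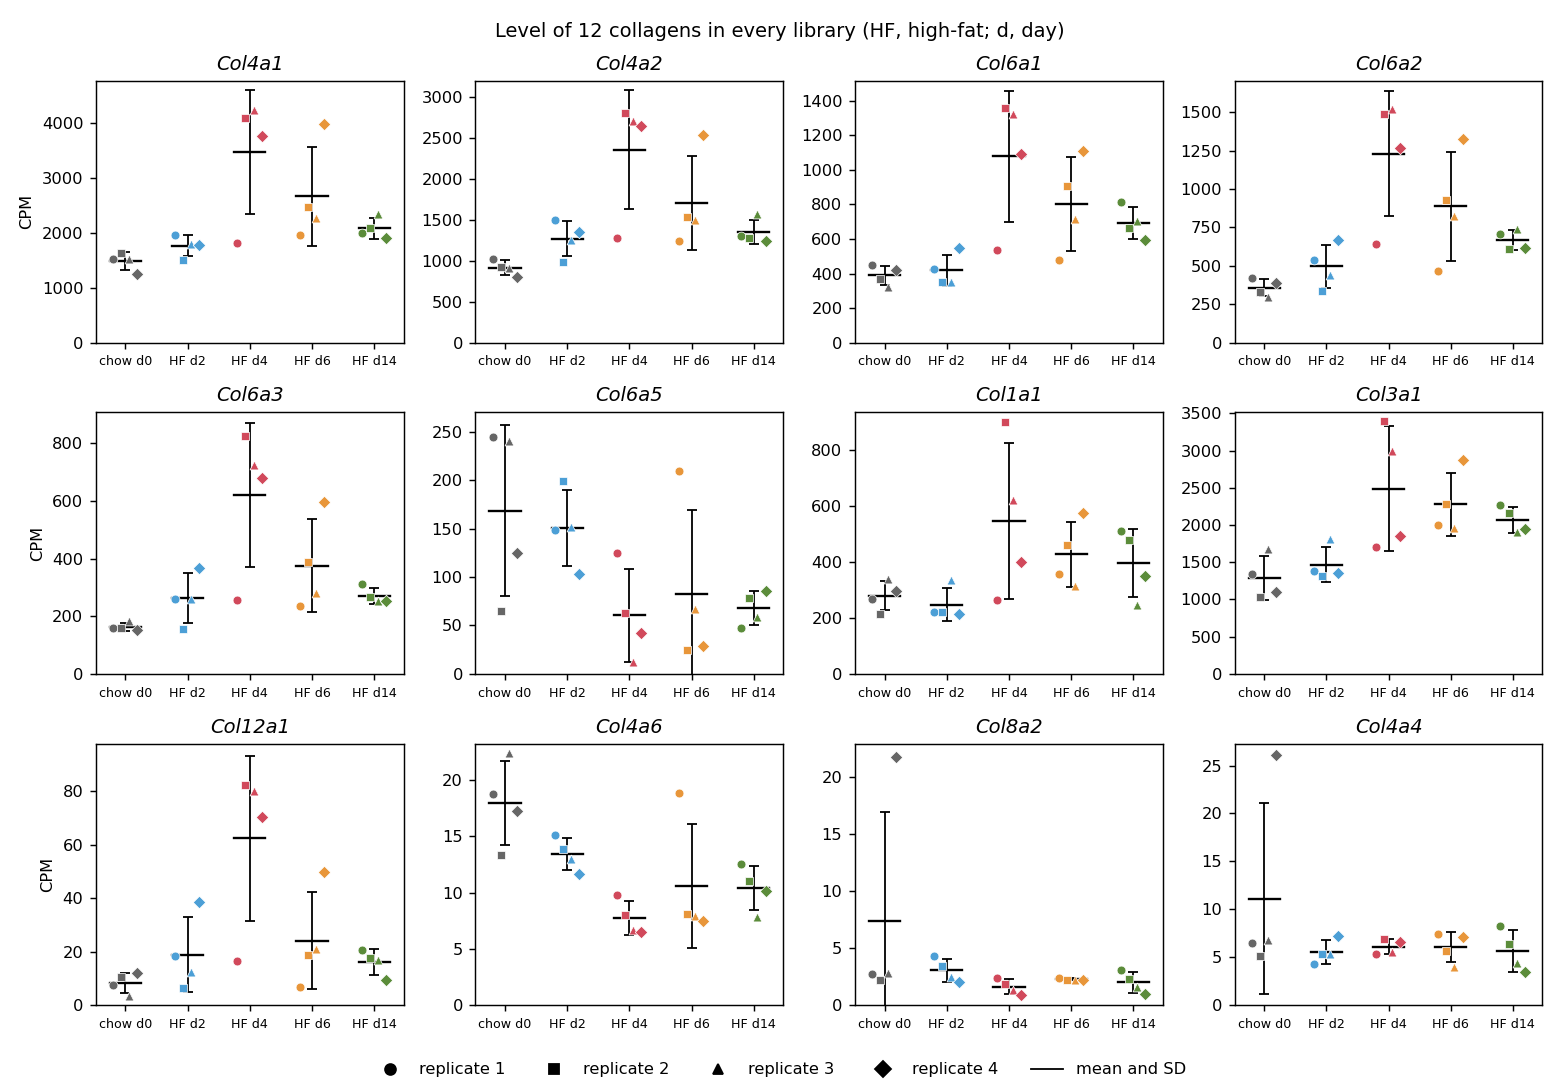
Level in CPM of 12 collagens in each of the 20 libraries, with the mean and SD of each group of 4, and vertical axes from 0, where bars that would reach below 0 end. Day 4 replicate 1 sits below the other day 4 libraries in Col4a1, Col4a2, Col6a1, Col6a2, Col6a3, Col1a1, Col3a1 and Col12a1, and chow replicate 4 is far above its group in Col8a2 and Col4a4.

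Among the other collagens, Col12a1 had the largest change of the 29. It is a collagen that binds to the surface of fibrils, and it had 7.39, 10.7, 3.59 and 11.9 CPM with chow, 18.3, 6.47, 12.3 and 38.6 CPM at day 2, 16.5, 82.4, 80.1 and 70.2 CPM at day 4, 6.82, 18.9, 21.02 and 49.7 CPM at day 6 and 20.5, 17.7, 16.9 and 9.48 CPM at day 14. Day 4 replicates 2, 3 and 4 exceeded every library of every other group, and day 4 replicate 1 lay just above the chow range. The log2 change on day 4 was 2.90 ± 0.62 (edgeR adjusted p = 0.00283), and it was between 2.62 and 3.24 in the fits without 1 library.

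Col8a1 and Col8a2 encode the chains of type VIII, a short-chain network collagen of vessel walls and of the cornea. Col8a1 had 8.97, 34.3, 51.0 and 23.3 CPM on day 4 and 11.3, 8.83, 13.6 and 10.3 CPM on chow, with replicate 1 of day 4 inside the chow range, and it rose by a log2 of 1.35 ± 0.39 (edgeR adjusted p = 0.0132). That call was lost without day 4 replicate 3, and it was also lost with limma-voom. Col8a2 had 2.42, 1.89, 1.33 and 0.85 CPM on day 4 and 2.73, 2.21, 2.83 and 21.7 CPM on chow. Its fall of -2.20 ± 0.63 (edgeR adjusted p = 0.0128) rested on chow replicate 4, without which the log2 change was -0.70 with an adjusted p of 0.150. The call was also lost without day 4 replicate 4, with limma-voom and in a fit of the compared groups alone. Without chow replicate 4 and day 2 replicate 1 it was lost as well (log2 change -0.68, edgeR adjusted p = 0.158).

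Col23a1, a collagen that spans the cell membrane, had 6.49, 6.51, 2.44 and 3.53 CPM on day 4 and 8.78, 6.86, 9.64 and 11.8 CPM on chow, and every day 4 library lay below every chow library. It fell with a log2 change of -0.96 ± 0.32 (edgeR adjusted p = 0.0267), a call lost without chow replicate 3 or 4 or day 4 replicate 3 or 4, with an adjusted p up to 0.096. The call of Col23a1 was also lost without chow replicate 4 and day 2 replicate 1 (log2 change -0.82, edgeR adjusted p = 0.0731). Col14a1, Col16a1 and Col20a1, which like Col12a1 attach to fibrils, were not called with all libraries, and neither were Col28a1, known from nerve, nor Col7a1, which anchors the skin's basement membrane. Col14a1 averaged 92.2 ± 47.7 CPM on day 4 and 56.1 ± 7.79 CPM on chow, and Col16a1 averaged 27.1 ± 11.7 CPM on day 4 and 24.3 ± 9.74 CPM on chow (SD, n = 4 each). The reads of Col20a1, 829 in all, lie beside 910 reads of an annotated overlapping transcript and are uncertain. Col20a1 was called lower without day 4 replicate 1 and day 6 replicate 4 (log2 change -1.05, edgeR adjusted p = 0.0204) and with library size as the only scaling (-0.85, edgeR adjusted p = 0.0476).

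All 14 collagens that rose on day 4 had their lowest day 4 value in replicate 1. The same 14 had their highest day 6 value in replicate 4. For the marker counts that follow, 35.3% of all 15254 genes tested were called on day 4, 2741 higher and 2640 lower. Endothelial markers, of which 5 of 7 were called higher on day 4, summed to 949, 1680, 1843 and 1568 CPM in day 4 replicates 1 to 4 and 789 to 1063 CPM on chow. Markers of smooth muscle and pericytes, 1 of 7 called higher, summed to 369 to 938 CPM on day 4 and 499 to 550 CPM on chow, and day 4 replicate 1 was again the lowest. All 7 genes of dividing cells were called higher, with sums of 47.1 to 482 CPM on day 4 and 11.2 to 34.9 CPM on chow. Fibroblast and progenitor markers, 2 of 7 called higher and 2 lower, summed to 853 to 1105 CPM on day 4 and 726 to 814 CPM on chow. Only 3 of these 7 had a positive log2 change on day 4, and their median change was -0.28. Macrophage markers, 0 of 7 called, summed to 642 to 1192 CPM on day 4 and 1071 to 1305 CPM on chow. None of these lists had a gene at 0 on day 4 or chow. Their part in the collagen changes was not tested.

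**Figure D5:**
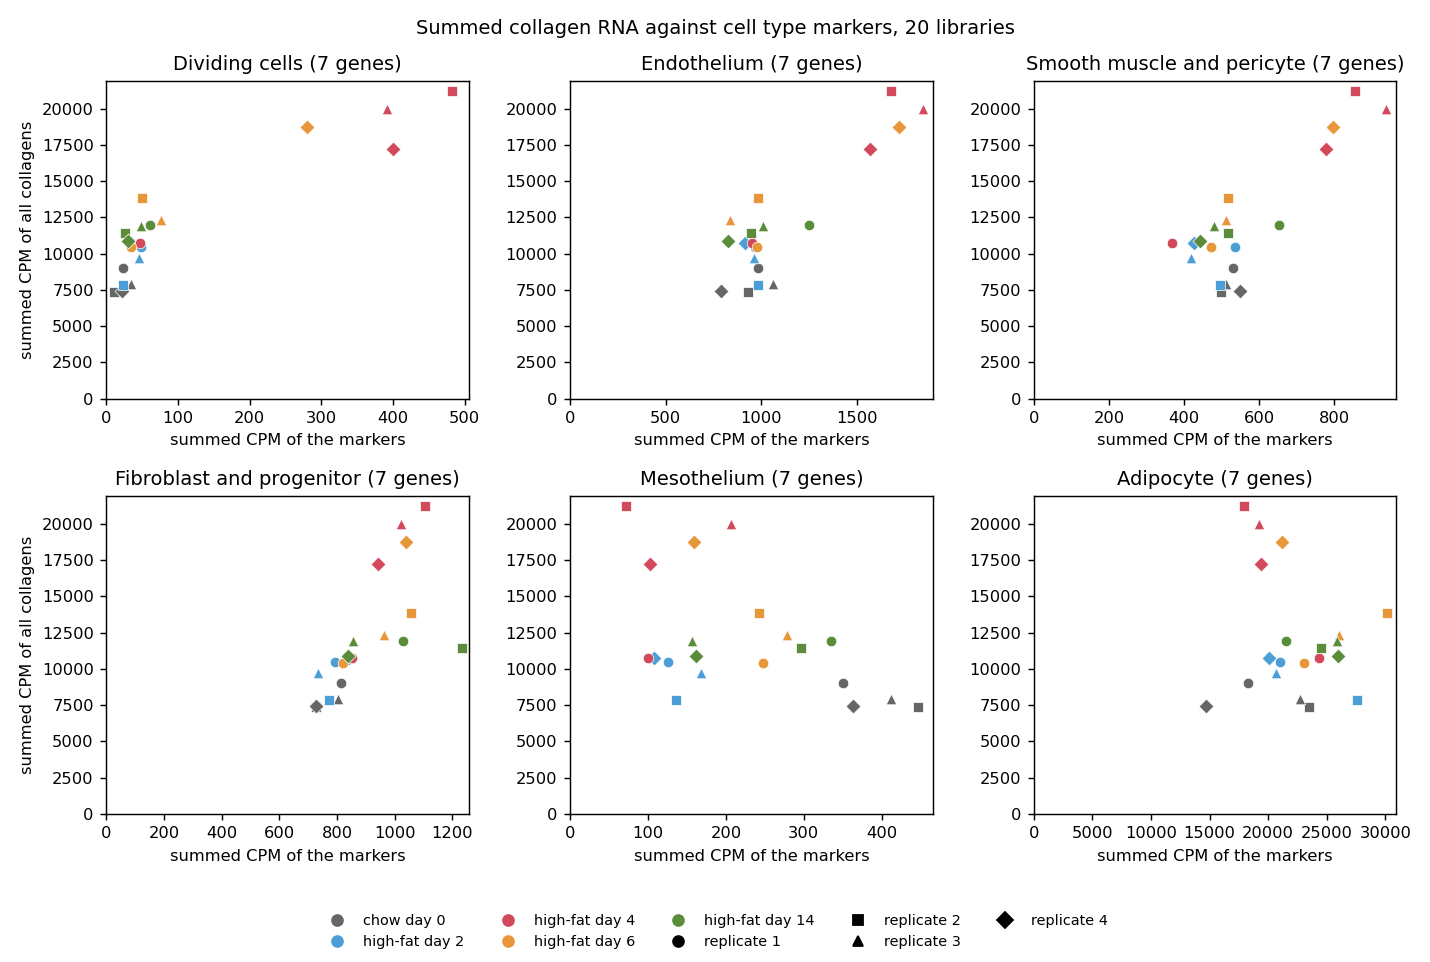
Summed CPM of all 44 collagens against the summed CPM of 7 markers of each of 6 cell types in the 20 libraries, coloured by group and shaped by replicate, with all axes linear from 0. Day 4 replicates 2, 3 and 4 and day 6 replicate 4 lie together at the top right for dividing cells, endothelium and smooth muscle, and day 4 replicate 1 lies among the other libraries.

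On day 2 no collagen was called by edgeR, where 4.39% of all genes were called. An unadjusted p under 0.05 was found for 7 of the 29, and for 3943 of all 15254 genes tested. DESeq2 called 1, with 1412 of all genes, and limma-voom none, with 444 of all genes. The median log2 change of the 29 was -0.07, against -0.03 over all genes. Col15a1 had the smallest adjusted p, with a log2 change of 0.65 ± 0.23 (edgeR adjusted p = 0.0923) and levels of 1115, 710.2, 779 and 1390.2 CPM on day 2 and 924, 589.8, 432 and 602 CPM on chow, which overlapped. In 3 genes, Col14a1, Col16a1 and Col20a1, every day 2 library lay below every chow library (7.26% of all genes), and in none above (5.47% of all genes).

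On day 6, 8 collagens rose and none fell, where 3.45% of all genes were called (1.99% higher). They were Col3a1, Col5a1 and Col5a2 among fibrillar collagens, Col4a1 and Col4a2, and the 3 classical type VI chains, and in each all day 6 libraries lay above all chow libraries (6.20% of all genes). The median change of the 29 was 0.37, against -0.01 over all genes. Col6a2 had 465, 930.3, 823 and 1329 CPM on day 6 and 422, 327, 297 and 389 CPM on chow, with a log2 change of 1.31 ± 0.28 (edgeR adjusted p = 0.0297). Col4a2 had 1245, 1534, 1500.2 and 2533 CPM on day 6 and 1022, 919, 916 and 804 CPM on chow, with a log2 change of 0.90 ± 0.23 (edgeR adjusted p = 0.0439). Day 6 replicate 4 was the highest in both. These calls were close to the threshold, and none of the 8 was kept in every fit without 1 library. Without chow replicate 4, day 6 replicate 2 or day 6 replicate 4 no collagen was called. Of all genes, 527 with all libraries, 7 were called without chow replicate 4 and 27 without day 6 replicate 2. Leaving out day 6 replicate 3 left 1 call, chow replicate 2 left 2, day 4 replicate 2 left 4, day 2 replicate 3 left 5 and day 6 replicate 1 gave 15. Over all genes these fits gave 15, 293, 211, 314 and 1343 calls in the same order. Leaving out chow replicate 3, day 2 replicate 1, day 4 replicate 3 or 4 or day 14 replicate 2 left 3 calls. Of all genes, 391, 220, 243 and 203 were called without chow replicate 3, day 2 replicate 1 and day 4 replicates 3 and 4. With chow replicate 4 and day 2 replicate 1 both left out, none of the 8 was called. With day 4 replicate 1 and day 6 replicate 4 both left out, only Col5a2 was called (log2 change 0.67, edgeR adjusted p = 0.0482).

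On day 14 no collagen was called by edgeR, where 1.18% of all genes were called. An unadjusted p under 0.05 was found for 15 of the 29, and for 2749 of all 15254 genes tested. DESeq2 called 6, with 659 of all genes, and limma-voom none, with 234 of all genes. Without day 4 replicate 1 and day 6 replicate 4, edgeR called Col4a1, Col4a2, Col5a1, Col5a2, Col6a1 and Col6a2 higher. Their log2 changes there were 0.49 to 0.90 (edgeR adjusted p = 0.0267 to 0.0488). Yet all day 14 libraries lay above all chow libraries in 8 collagens (5.28% of all genes), the same 8 genes as on day 6, and below in Col4a6 (4.65% of all genes). Both counts use the same chow libraries. The 7 genes of RNA quality and stress, such as Fos, Jun and Egr1, summed to 140 to 292 CPM on day 14 and 94.0 to 128 CPM on chow, without overlap. All 7 had a positive log2 change with a median of 0.51, none was called or at 0 in these libraries, and their part in the collagen levels was not tested. Col5a2 had 310.2, 322, 277 and 261 CPM on day 14 and 213, 205, 211 and 188 CPM on chow, a log2 change of 0.52 ± 0.15 (edgeR adjusted p = 0.0794). Col3a1 had a log2 change of 0.68 ± 0.21 (edgeR adjusted p = 0.0979) and Col6a2 one of 0.90 ± 0.28 (edgeR adjusted p = 0.104). The median change of the 29 was 0.43, against -0.01 over all genes.

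Between high-fat days, 8 collagens were higher on day 4 than on day 2, where 2.40% of all genes were called (2.14% higher). Col6a1 had 539, 1358, 1326 and 1093 CPM on day 4 and 426, 351, 351 and 546 CPM on day 2, with a log2 difference of 1.37 ± 0.26 (edgeR adjusted p = 0.0412). The others were Col4a1, Col4a2, Col18a1, Col5a1, Col5a2, Col6a2 and Col6a3, with log2 differences of 0.67 to 1.31. Col5a2 and Col14a1, the second of them not called, lay wholly above day 2 (4.07% of all genes), and Col4a6, not called, lay wholly below it (3.16% of all genes). No collagen was called in 15 of the 20 fits without 1 library. The exceptions were 7 without day 2 replicate 4, 17 without day 4 replicate 1 and 9, 5 and 11 without day 6 replicates 1, 2 and 4. The loss was not particular to collagens. Leaving out any chow library, day 2 replicate 1, 2 or 3, day 4 replicate 2, 3 or 4 or day 6 replicate 3 left 0 of all genes called. Of all genes, 586 were called without day 2 replicate 4, 2240 without day 4 replicate 1 and 505 and 308 without day 6 replicates 1 and 2.

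On day 14 against day 4, Col4a1, Col4a2 and Col6a3 were lower, where 9.36% of all genes were called (4.78% lower). Col6a3 had 313, 267, 254 and 254 CPM on day 14 and 258, 826, 724 and 679 CPM on day 4, with a log2 difference of -1.19 ± 0.31 (edgeR adjusted p = 0.0314). The groups overlapped through day 4 replicate 1. None of the 3 calls was kept in every fit without 1 library. None was left without day 4 replicate 2, 3 or 4, where 0 of all genes were called. None was left either without day 14 replicate 1, 2 or 4. Without day 4 replicate 1 there were 8 calls (2641 of all genes), and without day 6 replicate 4 there were 6. Without day 2 replicate 2 or day 6 replicate 1 there were 5 (1668 and 1398 of all genes). On day 6 against day 4 edgeR called no collagen and 0.00% of all genes. An unadjusted p under 0.05 was found for 2 of the 29, and for 2492 of all 15254 genes tested. DESeq2 (53 of all genes) and limma-voom (0 of all genes) also called no collagen. By edgeR, 9 were called without day 4 replicate 1 and day 6 replicate 4. Without day 4 replicate 1 alone, 737 of all genes were called. A difference among the 5 groups was called for 15 of the 29 collagens, and for 19.6% of all genes.

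The genes that fold, cut and bind collagens were counted in 5 lists for day 4 against chow. Over the 5 lists, 38 of 71 tested genes were called, 27 higher and 11 lower, against the 35.3% of all tested genes given above, whose median log2 change was -0.02. Of 18 tested genes of collagen folding and hydroxylation, 9 rose and 1 fell, with a median log2 change of 0.34. Serpinh1, the collagen chaperone HSP47, rose by a log2 of 1.69 ± 0.30 (edgeR adjusted p = 0.00123). P3h1 and Crtap, which act in 1 complex that hydroxylates prolines, rose by 0.76 and 0.47, and the lysyl hydroxylase Plod3 by 0.64. Of 14 genes of propeptide cleavage and crosslinking, 7 rose and none fell, with a median of 0.66. The crosslinking oxidases Lox and Loxl1 rose by 1.16 ± 0.23 and 0.73 ± 0.13, and the propeptide-cutting proteases Adamts14 and Adamts2 by 1.32 and 0.90.

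Of 14 fibril-binding proteoglycans and glycoproteins, 4 rose and 4 fell, with a median of 0.25. Dcn and Fmod, small proteoglycans that coat fibrils, fell by log2 changes of -1.25 ± 0.23 and -1.69 ± 0.24. Sparc, which binds collagen outside the cell, and Postn, a matrix protein of remodelling tissue, had rises of 1.06 ± 0.20 and 1.87 ± 0.43. Of 12 receptors, 4 rose and 2 fell, with a median of 0.24. Mrc2, which takes up collagen for degradation, rose by 1.51, Cspg4, a type VI collagen receptor of mural cells, by 1.36 and the integrin chain Itgb1 by 0.58, while the collagen-sensing kinase gene Ddr2 had a change of -0.66. Of 13 degrading enzymes and their inhibitors, 3 rose and 4 fell, with a median of -0.22. The inhibitor Timp4 and the gelatinase Mmp9 fell by log2 changes of -2.67 ± 0.42 and -2.29 ± 0.54, and Mmp15, a membrane-bound protease, and Ctsk, a collagen-cutting cathepsin, rose by 1.19 and 0.47.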

How the data were processed

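RNA was isolated from epididymal fat with a column kit and sequenced from TruSeq libraries, per the labels' protocols. The authors deposited raw counts, whole numbers of reads for each of 39179 Ensembl gene IDs in 20 libraries (5 groups of 4). CASAVA, R 3.0, featureCounts, STAR and limma are named in the submitters' processing notes. Their roles, the genome build, the annotation and the strand setting are not given in the sources used here. A reference table gave symbols for 37607 IDs, and no column was left unmapped.

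Computed here, in R 4.3.3: filterByExpr (minimum count 10, minimum total 15) left 15254 genes with at least 99.5% of each library's counts. Totals were scaled by TMM, CPM use these totals, and edgeR 4.0.16 fitted all 20 libraries with the group as the only term (15 residual degrees of freedom, common biological coefficient of variation 0.209). Benjamini-Hochberg adjusted p-values cover all tested genes per comparison, and standard errors come from the F statistic. Log2 CPM correlated at 0.954 to 0.989 across genes within groups, and no 2 libraries were identical. Steps were tested on simulated data. Transcript lengths and neighbours are from GENCODE M21 (protein-coding transcript with the longest coding sequence), which may differ from the authors' annotation.

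All collagens with a mean of at least 1 CPM are named, and from each pathway list up to 4 called genes with the smallest adjusted p on day 4. The members, lists, tests and alternatives were chosen with earlier results of these data known. Alternatives were RLE factors, library size only, no filter, at least 1 CPM in 4 libraries, DESeq2 1.42.0, limma-voom (limma 3.58.1), a fit of the compared groups alone, a replicate block, a threshold of 0.01, each library left out, and the libraries that stand apart left out in pairs. Depth limits the precision of collagens with few reads, and read counts without molecular identifiers are not independent molecules.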

Additional observations from a re-analysis of the deposited data

Results flagged for a closer look

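Among 145 sets of 4 values (29 collagens in 5 groups), 12 held a value far from the other 3. For independent sets of normal values, chance gives about 1 in 20. These sets share the same 20 libraries, with 4 of the 12 values in chow replicate 4 and 3 in day 6 replicate 1. The count therefore cannot show an excess over chance. Chow replicate 4 was high in Col16a1 (38.8 CPM, against 18.5 to 20.3 in the other 3 libraries), Col4a4 (26.05 CPM, against 5.11 to 6.81), Col4a3 (20.2 CPM, against 3.49 to 5.35) and Col8a2 (21.7 CPM, against 2.21 to 2.83). Chow replicate 1 was low in Col14a1 (44.5 CPM, against 58.5 to 61.1). Day 2 replicate 3 was high in Col3a1 (1817 CPM, against 1320.4 to 1382) and Col1a1 (335 CPM, against 214 to 221). Day 4 replicate 1 was low in Col4a2 (1275 CPM, against 2638 to 2803). Day 6 replicate 1 was low in Col15a1 (817 CPM, against 1185 to 1259) and high in Col6a6 (74.2 CPM, against 20.1 to 23.7) and Col4a6 (18.9 CPM, against 7.50 to 8.06). Day 6 replicate 4 was high in Col16a1 (32.3 CPM, against 19.5 to 21.6).

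With all libraries, the change against chow differed between high-fat days in a direct edgeR test for several collagens. None of these calls was kept in every fit without 1 library. Day 4 exceeded day 2 on the log2 scale by 0.98 in Col4a1, 0.89 in Col4a2, 1.31 in Col6a2, 1.37 in Col6a1, 0.83 in Col5a1, 1.25 in Col6a3, 0.67 in Col5a2 and 0.88 in Col18a1. These calls had edgeR adjusted p-values of 0.0412 to 0.0455, where 2.40% of all genes were called. Each was lost in 15 to 17 of 20 fits without 1 library, with limma-voom and with no filter. Against day 4, day 14 had a log2 difference of -0.74 in Col4a1, -0.80 in Col4a2 and -1.19 in Col6a3. Here the edgeR adjusted p-values were 0.0314 to 0.0493, where 9.36% of all genes were called, and each call was lost in 6 to 16 such fits.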

How the results depend on the processing

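For the 17 collagens called on day 4 against chow, the count was 12 to 20 under all alternatives and 13 to 20 with each library left out, and 12 of the 17 calls, 11 of them higher, were kept in all 20 such fits. Without chow replicate 4 and day 2 replicate 1, the counts were 7 for any difference (15 with all libraries), 0 for day 6 against chow (8) and 0 for day 4 against day 2 (8). Without day 4 replicate 1 and day 6 replicate 4, they were 6 for day 14 against chow (0), 8 for day 14 against day 4 (3), 17 for day 4 against day 2, 1 for day 6 against chow and 9 for day 6 against day 4 (0). A threshold of 0.01 gave 7 for any difference and 0 for day 14 against day 4, day 4 against day 2 and day 6 against chow. In these comparisons the main fit called 2994, 1428, 366 and 527 of all genes, and 0.01 left 445, 0, 0 and 11. DESeq2 gave 6 for day 14 against chow, 6 for day 14 against day 4, 1 for day 2 against chow (0) and 13 for day 6 against chow. Over all genes it called 659, 1979, 1412 and 1180 in the same order. limma-voom gave 1 for day 14 against day 4 (498 of all genes) and 0 for day 4 against day 2 (0 of all genes). With no filter the counts were 0 for day 14 against day 4, 0 for day 4 against day 2 and 3 for day 6 against chow. Over all 26613 genes then tested, 441, 0 and 130 were called in the same order. Library size only gave 0 for day 4 against day 2 (0 of all genes) and 3 for day 6 against chow (907 of all genes). It moved the median of all genes against chow to between -0.14 and -0.10. A fit of only the groups compared gave 3 for day 14 against chow, 0 for day 4 against day 2 and 0 for day 6 against chow. Over all genes that fit called 79, 0 and 0 in the same order. With each library left out the ranges were 8 to 18 for any difference, 0 to 1 for day 14 against chow, 0 to 8 for day 14 against day 4, 0 to 1 for day 2 against chow, 0 to 17 for day 4 against day 2, 0 to 15 for day 6 against chow and 0 to 1 for day 6 against day 4. The cause of these shifts was not tested.

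The labels number replicates 1 to 4 in each group. The deviations of same-numbered libraries correlated above 0.1 in 12 of 40 pairs, and those of differently numbered libraries in 30 of 120. Of the 20 libraries, 10 correlated best with their own number, a hint of pairing from the data and not from the design. The library names also carry running numbers that are consecutive within replicates 3 and 4, and what these mark is not given in the labels. Not every pair exceeded 0.1, so the block was kept as an alternative. With the replicate block the counts were 19 for day 4 against chow, 5 for day 6 against chow and 0 for day 14 and day 2 against chow. They were 8 for day 4 against day 2, 2 for day 14 against day 4 and 13 for any difference. Over all genes the block gave 5495, 409, 235, 905, 551, 1597 and 3174 calls in the same order. No single-gene change reversed its direction under an alternative while called. The smallest library, day 2 replicate 1, limits the collagens with few reads.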

Other observations

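Of the 71 tested genes that handle collagens, 3 were called on day 2 (4.23%, against 4.39% of all genes), 4 on day 6 (5.63%, against 3.45%) and 3 on day 14 (4.23%, against 1.18%), all against chow. The genes named here were chosen after their values were seen. Loxl1, a crosslinking oxidase, was higher than on chow on all 4 high-fat days, with log2 changes of 0.89, 0.73, 0.65 and 0.85 in the order of days and edgeR adjusted p-values of 0.00351, 0.0013, 0.0266 and 0.00401. All high-fat libraries lay above all chow libraries on each day, and all 4 changes share the chow libraries. On day 14 it was the only one of 14 genes of propeptide cleavage and crosslinking to be called. Sparc and Prelp, a fibril-binding proteoglycan, were the 2 of 14 fibril-binding genes called on day 14, with log2 changes of 0.96 ± 0.20 and 1.25 ± 0.22 (edgeR adjusted p = 0.0245 and 0.00862), and the same 2 were called on day 6. None of 18 folding and hydroxylation genes, 12 receptors and 13 degrading enzymes and inhibitors was called by edgeR on day 6 or day 14, and Timp4 and Fmod were lower on day 2, with log2 changes of -1.44 and -1.28.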
